A study of Mus musculus with 2 samples.

Results

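Cholangiocytes are the epithelial cells that line the bile ducts. They were taken here as cell barcodes with at least 2 unique molecular identifiers (UMIs, counts of single captured RNA molecules) summed over Epcam, Krt19 and Krt7. Epcam encodes an epithelial adhesion protein, and Krt19 and Krt7 encode keratins of biliary epithelium. A barcode also had to hold no UMI of Upk3b or Msln, which mark mesothelium, none of Ptprc, which marks leukocytes, and at most 1 of Stab2, a scavenger receptor of sinusoidal endothelium. Of 8172 kept barcodes, those in which 200 or more genes were seen and no more than 25% of UMIs were mitochondrial, 73 met this rule: 51 of 5446 in the pIVCL library and 22 of 2726 in the Control library.

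The study sequenced mixed liver cell suspensions of C57BL/6 mice, 1 library per group, with droplet-based 3' single-cell RNA sequencing. In the pIVCL group the inferior vena cava had been partly ligated for 6 weeks, beginning when the mice were 8 to 10 weeks old, a model of portal hypertension from outflow congestion. The Control library is titled healthy, yet the labels attach the same ligation text to it. The sources used here do not say whether it was sham-operated or how many animals went into each library. Hepatocytes and non-parenchymal cells were isolated by separate procedures, and their mixing proportion is likewise not stated. With 1 library per group there is no replicate check and no test. All intervals are 95% exact intervals and cover counting error only.

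Cholangiocytes modify bile by secreting bicarbonate and water, carry a primary cilium that senses flow, and seal the duct lumen with tight junctions. Their identity is maintained by transcription factors such as Sox9, and Notch and YAP signalling take part in biliary differentiation. In injured livers, ductular cells expand and secrete proteins such as osteopontin, the product of Spp1.

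Cholangiocyte barcodes made up 0.936% (interval 0.698 to 1.23) of kept barcodes in pIVCL and 0.807% (0.506 to 1.22) in Control, a ratio of 1.16 (0.691 to 2.01). The intervals of the shares overlap. The ratio depended on what the barcodes were counted against. It was 0.607 relative to hepatocyte barcodes (1009 in pIVCL and 264 in Control), 0.710 relative to leukocyte barcodes (1622 and 497) and 5.80 relative to mesothelial barcodes (14 and 35). Relative to sinusoidal endothelial barcodes (333 in pIVCL and 908 in Control) it was 6.32. The abundance of cholangiocytes cannot be told apart here from the mixing of the suspensions.

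The libraries held 38154000 UMIs in pIVCL and 24637681 in Control, with a median of 2005 and 5268 UMIs per kept barcode. Cholangiocyte barcodes held 362286 UMIs in pIVCL, with a median of 5292 per barcode (609 to 38624), and 225516 in Control, with a median of 8265 (657 to 41024). The deepest barcode gave 10.7% of these UMIs in pIVCL and 18.2% in Control. A median of 2363 genes was detected per barcode in pIVCL and 3202 in Control. Of the kept barcode sequences, 9 occurred in both libraries, and 0 of them belonged to a cholangiocyte. No doublet caller was run.

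Epcam was the most often detected of the rule genes, with a UMI in 48 of 51 pIVCL and 22 of 22 Control barcodes (233 and 214 UMIs). Krt19 was detected in 39 pIVCL and 20 Control barcodes, and Krt7 in 30 and 14. All 3 genes were present in 25 pIVCL and 13 Control barcodes, and a single one in 10 and 1. Epcam was that single gene in 8 of the 10 pIVCL barcodes and in the 1 Control barcode. These values chose the barcodes and are given as a description. Just inside the threshold, at exactly 2 rule UMIs, 5 pIVCL barcodes held a median of 13 UMIs (1 to 30) of 24 biliary markers that the rule did not use, and 1 Control barcode held 7. Just outside, at 1 rule UMI, 18 pIVCL barcodes held a median of 2 (0 to 49) and 12 Control barcodes a median of 4 (0 to 70). A further 18 pIVCL and 23 Control barcodes had at least 2 rule UMIs and missed another limit, in 12 and 19 of them through Upk3b or Msln.

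The 24 biliary markers that the rule did not use include Sox9, the claudins Cldn3, Cldn4 and Cldn7, Pkhd1, Bicc1 and Spp1. They held 1.66% of UMIs in pIVCL cholangiocyte barcodes and 2.52% in Control, against 0.0404% and 0.0241% in all other kept barcodes. Spp1 measured 11190.1 CPM (UMIs per 1000000 summed UMIs) in pIVCL and 17662 CPM in Control cholangiocytes. In hepatocyte barcodes it measured 37.2 CPM in pIVCL and 13.5 CPM in Control. Mesothelial barcodes, which also express keratins, held Krt19 at 468 CPM in pIVCL and 692 CPM in Control, and Spp1 at 0 and 3787 CPM. How the Control value was spread over single mesothelial barcodes was not tested. Of 19 Control barcodes with at least 2 rule UMIs and a UMI of Upk3b or Msln, 2 held 3 or more Spp1 UMIs. In these 19, 1 barcode held 584 of 963 UMIs of the biliary markers. The mesothelial class was set by a different limit.

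After every barcode was thinned to 1000 UMIs in 1 random draw, Spp1 was present in 91.8% of 49 pIVCL and 100% of 21 Control cholangiocytes. In hepatocyte barcodes of the same depth it was present in 3.35% in pIVCL and 0.922% in Control. Leukocyte barcodes gave 1.62% in pIVCL and 0% in Control. The median depth before thinning was 9580 and 7156 UMIs in hepatocyte barcodes and 2172 and 4719 in leukocyte barcodes.

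Ranked by the lesser of their 2 within-library ratios to all other kept barcodes, the 15 leading genes of these barcodes were Spp1, Epcam, Ankrd1, Bicc1, Fxyd3, Ddit4l, Tstd1, Tspan8, Scara3, Krt19, Sox9, Dcdc2a, Atf3, Sftpd and Cldn7. Ankrd1, a target of YAP, measured 535 CPM in pIVCL and 532 CPM in Control cholangiocytes, and 1.43 and 0.967 CPM in other barcodes. Bicc1, an RNA-binding protein whose loss causes cystic disease, measured 616 CPM in pIVCL and 825 CPM in Control, against 8.48 and 13.3 CPM elsewhere. Sftpd, a collectin of epithelial surfaces, measured 235 CPM in pIVCL and 302 CPM in Control, against 0.918 and 2.55 CPM elsewhere. The rule used Epcam and Krt19 directly, and this ranking only describes the barcodes.

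The rule did not gather uniform barcodes. The biliary markers held between 0.0246% and 3.81% of a barcode's UMIs in pIVCL (median 2.29%) and between 0.304% and 3.86% in Control (median 2.50%). Spp1 alone gave 4054 of the 6021 UMIs of these markers in pIVCL and 3983 of 5686 in Control. In 42 of 51 pIVCL and 19 of 22 Control barcodes the markers held at least 1% of UMIs. These are called biliary-rich below, and this limit was set after the data had been seen. Their biliary share ran from 1.41% to 3.81% in pIVCL and from 1.69% to 3.86% in Control. Outside the rule, 7 pIVCL and 3 Control barcodes also reached 1%.

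The remaining 9 pIVCL and 3 Control barcodes met the rule with a biliary share under 1%. In 5 of the 9, 9 abundant hepatocyte genes such as Alb and Apoa1 held 9.11% to 14.6% of UMIs, at 14.5% to 20.5% mitochondrial UMIs. In 2 others, 41 and 32 UMIs of B-cell genes and 83 and 65 UMIs of MHC class II genes came with 0 UMIs of Spp1. Of the 5 hepatocyte-rich barcodes, 1 held 85 UMIs of Igha, an immunoglobulin gene. In Control, 1 barcode of 23996 UMIs had 10.5% of UMIs in the hepatocyte genes and 18.5% mitochondrial UMIs. The 9 pIVCL barcodes gave 37.6% of all UMIs of pIVCL cholangiocytes and 78.4% of the hepatocyte-marker UMIs among them. The 3 Control barcodes gave 11.5% and 44.1%.

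**Figure D1:**
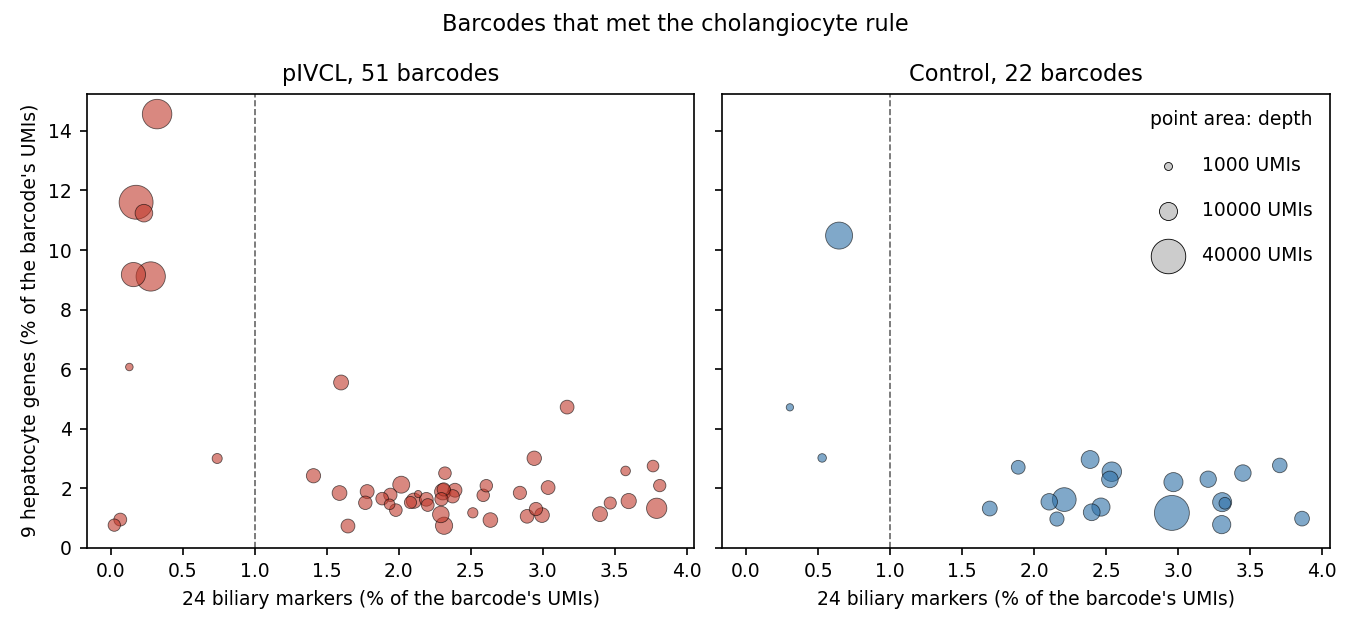
Each point is 1 barcode that met the rule, with the percent of its UMIs in 24 biliary markers on the horizontal and in 9 abundant hepatocyte genes on the vertical axis; pIVCL is in the left panel, Control in the right, and point area stands for UMIs per barcode. The dashed line marks 1% biliary UMIs: 42 pIVCL and 19 Control barcodes lie right of it, and the barcodes over 9% hepatocyte UMIs lie left of it.

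**Figure D2:**
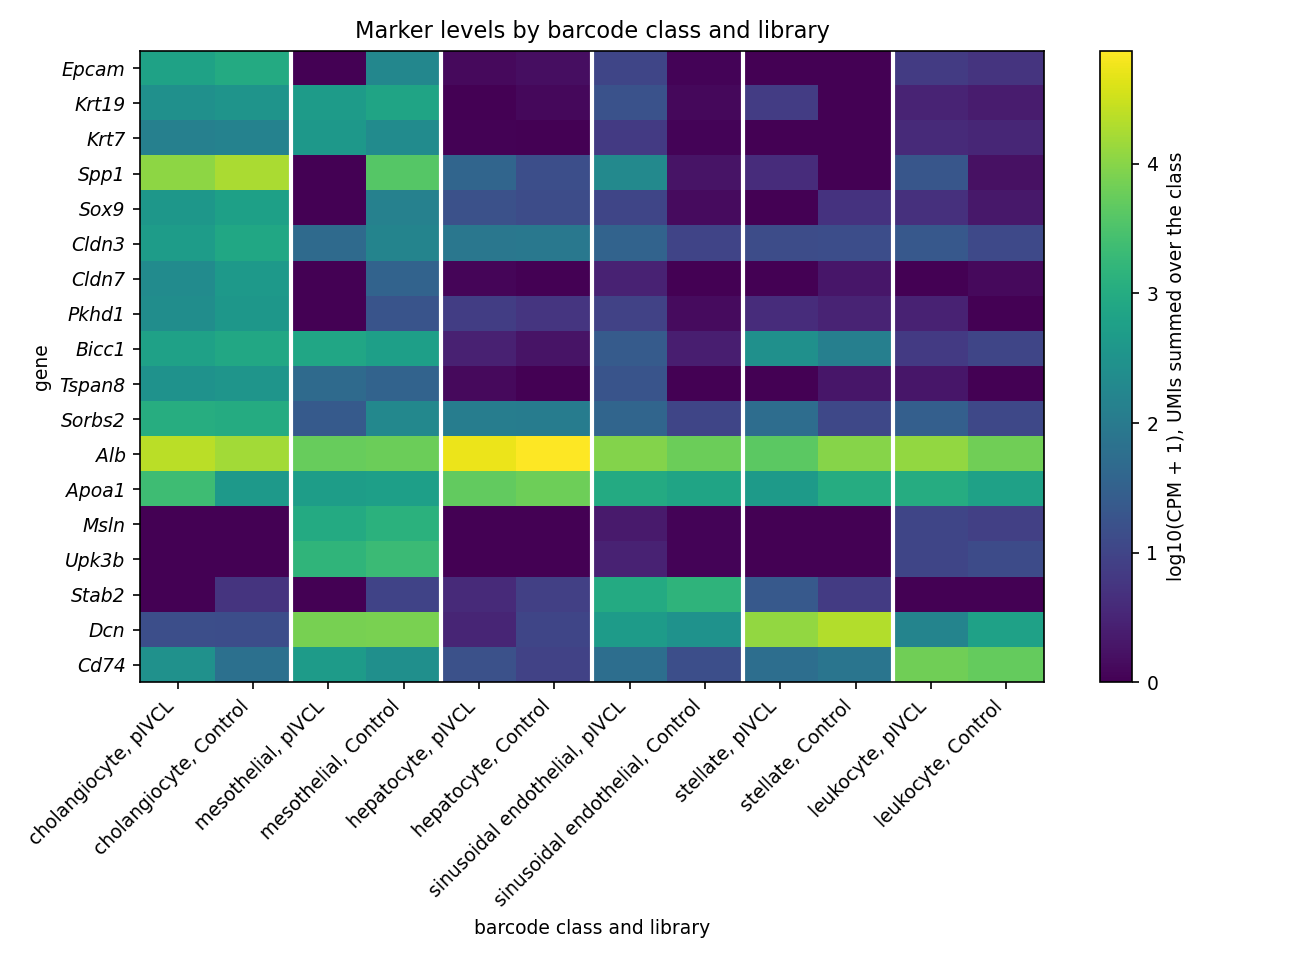
Heat map of log10(CPM + 1), with 11 biliary genes above 7 markers of other cells as rows and barcode classes as columns, pIVCL left of Control in each class. Spp1 measured 11190.1 CPM in pIVCL and 17662 CPM in Control cholangiocytes and 37.2 and 13.5 CPM in hepatocyte barcodes.

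Over all barcodes that met the rule, the 10 highest log2 ratios under the ranking limits included those of Mup20, Scd1, Rnase4, Hpx, Msmp, Apoc4, Apoa2, H2-Q10 and Hp. Of 4676 genes with at least 20 summed UMIs, 246 (5.26%) were at least 2-fold higher in pIVCL than in Control on the log2 scale with 20 CPM added, and 90 (1.92%) were at least 2-fold lower. Together these were 7.19% of genes, and the median log2 ratio of all genes was -0.10. Of the 246 higher genes, 204 (82.9%) had a higher level in pIVCL hepatocyte barcodes than in pIVCL cholangiocyte barcodes. Of the 90 lower genes, 0 did so in Control. The share of all 4676 genes with a higher hepatocyte level was not computed, so neither count has a background. Hpx, a haem-binding plasma protein, measured 2390.4 CPM in pIVCL and 239 CPM in Control. Scd1, a fatty acid desaturase, measured 1261 CPM in pIVCL and 62.1 CPM in Control. Mup20, a major urinary protein of hepatocytes, had 266 UMIs in 27 pIVCL barcodes, of which 154 were in 1 barcode, and 0 UMIs in Control, where the limit of 3 UMIs lies at 13.3 CPM. The part of the hepatocyte-rich barcodes in single genes was not tested.

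The MHC class II genes, which present antigen to T cells, were counted mostly in few pIVCL barcodes. All 4 measured genes were at least 2-fold higher in pIVCL over all barcodes (median log2 ratio 1.60), and the list held 0.0538% of UMIs in pIVCL and 0.0120% in Control. Of its 195 pIVCL UMIs, 83 and 65 were in the 2 barcodes with B-cell genes. Cd74, the invariant chain of MHC class II, had 105 UMIs in pIVCL, 52 of them in 1 barcode, and 14 in Control. In biliary-rich barcodes the list held 0.0146% in pIVCL and 0.0135% in Control, and Cd74 had 21 UMIs in 11 of 42 pIVCL and 14 in 5 of 19 Control barcodes. Its ratio there was 1.32 (0.642 to 2.82). The 12 lymphocyte markers had 87 UMIs in pIVCL and 0 in Control over all barcodes, and 1 and 0 UMIs in biliary-rich barcodes.

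The comparisons that follow use the biliary-rich barcodes, which held 226030 UMIs in pIVCL and 199538 in Control. The 16 hepatocyte markers held 2.15% of these UMIs in pIVCL and 1.96% in Control, against 3.54% and 1.80% in leukocyte barcodes. The leukocyte class had no limit on hepatocyte genes. In pIVCL, single leukocyte barcodes held 0.179% to 19.7% of UMIs in these markers (median 2.18%). In Control they held 0.0793% to 18.2% (median 1.04%). Marker lists of other cells had few UMIs: 12 macrophage markers had 14 UMIs in pIVCL and 13 in Control, 12 sinusoidal endothelial markers 3 and 8, and 7 erythroid markers 2 and 1. The 12 stellate markers had 60 UMIs in pIVCL and 59 in Control, and 10 vascular endothelial markers 24 and 15. Mesothelial markers (11) had 18 and 19, and neutrophil and dendritic markers (11) 8 and 1. The rule itself limited Stab2, Ptprc, Upk3b and Msln. Of 3672 measured genes, 115 (3.13%) were at least 2-fold higher in pIVCL and 42 (1.14%) were at least 2-fold lower, 4.28% in all. The median log2 ratio was 0.02. Of the higher genes, 46 were also past 2-fold over all barcodes, which is 18.7% of the 246 and 40% of the 115. Of the lower genes, 30 were shared, which is 33.3% of the 90 and 71.4% of the 42. Only 106 of the 246 and 81 of the 90 were measured in biliary-rich barcodes, and the others could not be shared.

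Over all barcodes that met the rule, 17 of 19 measured biliary markers had a negative log2 ratio (median -0.46, against -0.10 for all genes). There 0 were at least 2-fold higher in pIVCL and 1 was lower, against 5.26% and 1.92% of all genes. In the biliary-rich barcodes these genes lay closer together in the 2 libraries. The markers chose these barcodes, which bounds their summed share from below, so their levels are a description. Cldn4, Sox9 and Pkhd1 among them are also on lists described below. Of 19 measured markers, 1 was at least 2-fold higher in pIVCL and 0 were lower, against 3.13% and 1.14% of all genes, with a median log2 ratio of -0.07. Spp1 ranged from 9 to 394 UMIs per barcode in pIVCL (median 85) and from 64 to 860 in Control (median 175). All barcodes of both libraries held it, and the ranges overlap. Scaled to depth, it measured 17179 CPM in pIVCL and 19525 CPM in Control, a ratio of 0.880 (0.841 to 0.920). Sox9 measured 579.6 CPM (485 to 688) in pIVCL and 621 CPM (517 to 741) in Control, and its log2 ratio of -0.10 was 0.35 after thinning.

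Some of the other markers lay further from a ratio of 1. Cldn4, a claudin that tightens junctions, was the 1 marker past 2-fold, with 26 UMIs in 16 of 42 pIVCL barcodes and 8 in 3 of 19 Control barcodes (115 and 40.1 CPM). Its log2 ratio of 1.17 was 0.91 without the deepest barcode of each library. Sorbs2, a scaffold protein of the actin cytoskeleton, measured 1633 CPM in pIVCL and 1062 CPM in Control (ratio 1.54, 1.29 to 1.83). Atp1b1, the beta subunit of the sodium pump, measured 531 CPM in pIVCL and 977 CPM in Control (ratio 0.543, 0.429 to 0.685). Its log2 ratio of -0.86 was -0.27 after thinning. It was detected in 40 of 42 pIVCL and 19 of 19 Control barcodes.

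Among keratins, Krt8 measured 1876 CPM in pIVCL and 1519 CPM in Control, and Krt18 1597 CPM in pIVCL and 1724 CPM in Control. Krt23 measured 115 CPM in pIVCL and 210.5 CPM in Control (ratio 0.546, 0.322 to 0.912). None of the 5 measured keratins passed 2-fold (median 0.17). Krt19 and Krt7, which the rule used, are among the 5, and the median is the value of Krt19. The keratin count and median are therefore a description.

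Over all barcodes that met the rule, 12 of 16 measured biliary transcription factors had a negative log2 ratio and 0 passed 2-fold (median -0.39). In biliary-rich barcodes, 0 of 15 measured passed 2-fold in either direction, and their median log2 ratio was -0.10. That median is the value of Sox9, 1 of the markers that chose these barcodes. Hes1, the Notch target that is also part of the Notch list, measured 637 CPM in pIVCL and 316 CPM in Control (log2 ratio 0.97). Klf6 measured 788 CPM in pIVCL and 446 CPM in Control (log2 ratio 0.79). Hhex, which acts early in liver and bile duct development, measured 305 CPM in pIVCL and 451 CPM in Control (log2 ratio -0.53).

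The duct's transport genes were sparsely counted. Of 27 listed, 10 were measured, 2 of them at least 2-fold higher in pIVCL and 0 lower (median 0.19). Slc2a1, the glucose transporter GLUT1, had 22 UMIs in 17 pIVCL barcodes and 7 in 6 Control barcodes (97.3 and 35.1 CPM). Ano1, a calcium-activated chloride channel, had 28 UMIs in 19 pIVCL barcodes and 10 in 6 Control barcodes (124 and 50.1 CPM). Cftr, the chloride channel of bile secretion, had 4 UMIs in pIVCL and 3 in Control, and Aqp1, a water channel of bile ducts and of endothelium, had 0 in both. For Cftr and Aqp1 a difference was not detectable at this depth.

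Of 16 measured junction genes, 2 were at least 2-fold higher in pIVCL (Cldn4 and Cdh6) and 1 was lower (Ocln), with a median of 0.13. Cdh6, a cadherin, measured 133 CPM in pIVCL and 50.1 CPM in Control. Ocln, the tight-junction protein occludin, measured 26.5 CPM in pIVCL and 85.2 CPM in Control, on 6 and 17 UMIs. Of 7 measured basement membrane genes, Hspg2 (perlecan) was higher past 2-fold, at 115 CPM in pIVCL and 20.05 CPM in Control (ratio 5.74, 1.99 to 22.6). Hspg2 measured 69.9 CPM in pIVCL and 229 CPM in Control in all other kept barcodes. That pool, also used for genes below, differed in make-up between the libraries. It held 333 sinusoidal endothelial barcodes in pIVCL and 908 in Control, and 1009 and 264 hepatocyte barcodes. Its levels therefore mix cell make-up with expression. Of 8 measured cilium and polycystic genes, 0 passed 2-fold (median -0.01), and Pkhd1, which encodes the ciliary protein fibrocystin, measured 380.5 CPM in pIVCL and 426 CPM in Control.

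Secreted proteins took 3.54% of UMIs in pIVCL and 4.35% in Control. Clu, the chaperone clusterin, measured 13069 CPM in pIVCL and 19004 CPM in Control (ratio 0.688, 0.655 to 0.722). It ranged from 5 to 276 UMIs per barcode in pIVCL (median 66.5) and from 54 to 854 in Control (median 135). The ranges overlap, and Clu was present in each biliary-rich barcode. S100a6, a calcium-binding protein, was the 1 of 10 measured secreted protein genes past 2-fold, at 115 CPM in pIVCL and 25.1 CPM in Control. It measured 209 CPM in pIVCL and 120 CPM in Control in all other kept barcodes. Lcn2, an iron-siderophore binding protein of innate defence, measured 199 CPM in pIVCL and 90.2 CPM in Control (ratio 2.21, 1.25 to 4.05). In all other kept barcodes Lcn2 measured 176 CPM in pIVCL and 12.1 CPM in Control.

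Immediate-early genes are transcribed within minutes of a stimulus, also when tissue is dissociated. Of 14 measured, 7 were at least 2-fold higher in pIVCL and 0 lower, against 3.13% and 1.14% of all genes. The log2 ratio was positive for 13 of the 14, with a median of 0.92 against 0.02 for all genes. Without the deepest barcode of each library, or with barcodes weighted equally, 2 of the 14 (Zfp36 and Dusp1) were past 2-fold, and the median was 0.71 and 0.79. Over all barcodes that met the rule, 2 of 16 measured genes were past 2-fold, with a median of 0.46. The list held 1.65% of UMIs in pIVCL and 1.04% in Control. Per barcode it held from 0.0826% to 4.35% in pIVCL (median 1.56%) and from 0.0647% to 2.69% in Control (median 0.982%). The barcodes of the libraries overlap over most of that range.

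Zfp36, which destabilises AU-rich messenger RNAs, stood furthest apart, with 105 UMIs in 28 of 42 pIVCL and 20 in 10 of 19 Control barcodes. These were 465 CPM in pIVCL and 100.2 CPM in Control, a ratio of 4.63 (2.85 to 7.90). After thinning, 31.7% of 41 pIVCL and 10.5% of 19 Control barcodes held a UMI of Zfp36. In a separate draw over all barcodes that met the rule, 24.5% of 49 pIVCL and 0% of 21 Control barcodes held it. Dusp1, a MAP kinase phosphatase, measured 916 CPM in pIVCL and 346 CPM in Control (ratio 2.65, 2.01 to 3.53). It ranged from 0 to 23 UMIs per barcode in pIVCL (median 3) and from 0 to 17 in Control (median 2).

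The transcription factors of the list were uneven. Fos measured 1933 CPM in pIVCL and 947 CPM in Control (ratio 2.04, 1.72 to 2.43), and Atf3 1522 CPM in pIVCL and 742 CPM in Control (ratio 2.05, 1.69 to 2.51). The log2 ratio of Atf3, 1.02 at full depth, was 0.25 after thinning. Junb measured 1876 CPM in pIVCL and 1052 CPM in Control (ratio 1.78, 1.51 to 2.11). Jun, Egr1 and Jund lay closer together: Jund measured 1283 CPM in pIVCL and 1348 CPM in Control, with an interval of its ratio from 0.803 to 1.13. Ier2, Ier3 and Btg2 completed the 7 genes past 2-fold, with log2 ratios of 1.04, 1.08 and 1.03.

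The same list was also higher in other barcode classes of pIVCL, apart from hepatocyte barcodes. Its median log2 ratio was 1.30 in mesothelial, 1.06 in sinusoidal endothelial, 0.50 in leukocyte, 0.54 in stellate and 0.01 in hepatocyte barcodes. Of 10 measured heat shock genes, which dissociation also induces, 1 (Hspb1) was at least 2-fold higher in pIVCL biliary-rich barcodes, 0 were lower, and the median was 0.01. The heat shock median was 0.41 in mesothelial, 0.46 in sinusoidal endothelial, 0.16 in leukocyte, 0.17 in stellate and 0.07 in hepatocyte barcodes. With 1 library per group, the ligation and the handling of each suspension cannot be told apart.

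**Figure D3:**
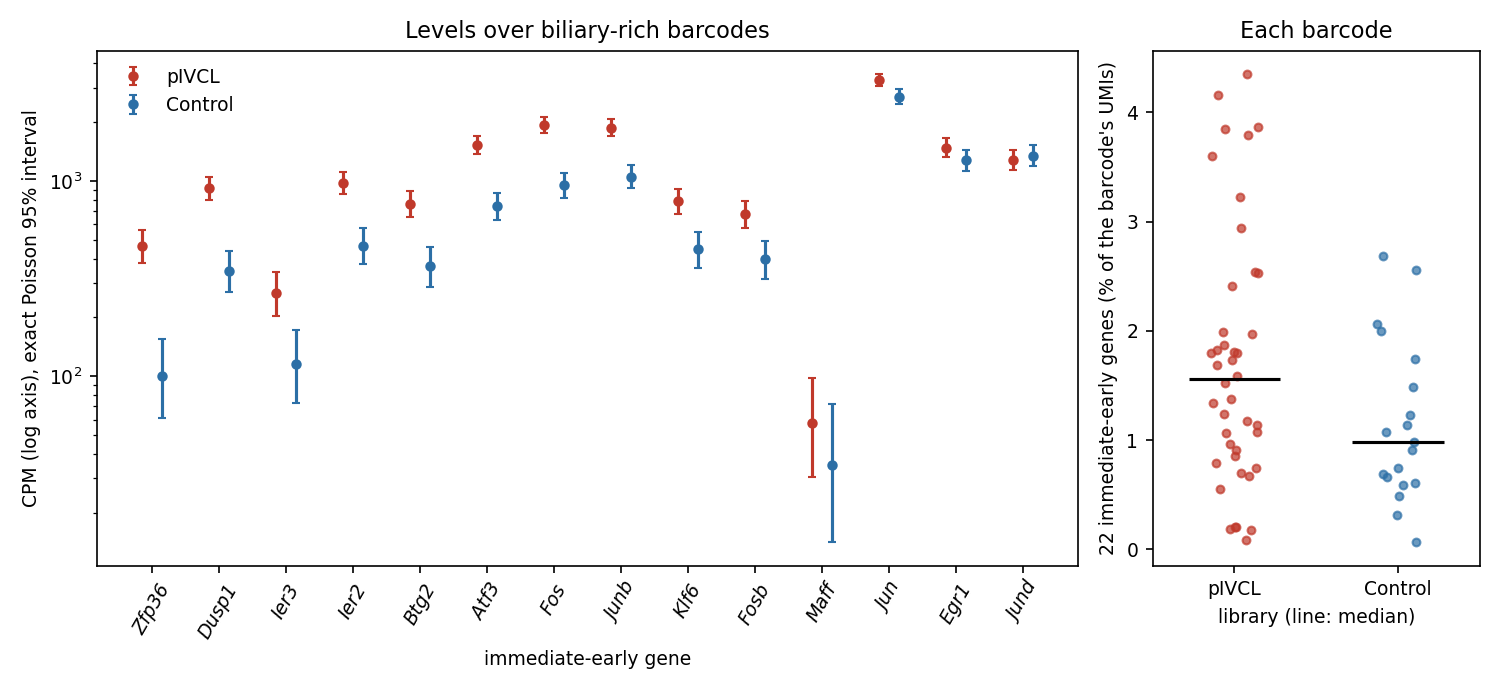
Left, CPM of the 14 measured immediate-early genes over biliary-rich barcodes (log axis, bars are 95% exact Poisson intervals). Right, percent of each biliary-rich barcode's UMIs held by all 22 listed genes, with 42 pIVCL barcodes left of 19 Control barcodes and lines at the medians, which are 1.56% and 0.982%, and the barcodes of the libraries overlap.

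Dusp1 and Btg2, an antiproliferative immediate-early gene, are shown because their promoter windows hold the full cAMP response element TGACGTCA, the binding motif of CREB and ATF factors, in capitals below. They are the 250 bases before each start site, from RefSeq (build GRCm38.p6), 5′ to 3′ on the gene's strand.
Dusp1 (chr17:26508473-26508722, minus strand): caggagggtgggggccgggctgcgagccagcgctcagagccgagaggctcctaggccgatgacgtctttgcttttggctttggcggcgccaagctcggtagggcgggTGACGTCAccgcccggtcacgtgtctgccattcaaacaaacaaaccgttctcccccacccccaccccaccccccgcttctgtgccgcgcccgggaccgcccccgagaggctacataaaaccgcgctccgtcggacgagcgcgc
Btg2 (chr1:134079156-134079405, minus strand): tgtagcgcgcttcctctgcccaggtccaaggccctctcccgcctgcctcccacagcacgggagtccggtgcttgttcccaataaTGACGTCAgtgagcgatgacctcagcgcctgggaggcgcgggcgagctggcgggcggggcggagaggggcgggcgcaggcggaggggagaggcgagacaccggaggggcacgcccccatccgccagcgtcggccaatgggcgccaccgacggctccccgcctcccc
The element begins 143 bases before the start of Dusp1 and 166 bases before that of Btg2. Searched on both strands, it occurred in 3 of 12 measured immediate-early genes with a window (Dusp1, Btg2 and Maff) and in 1.55% of 32851 windows of the same length. A match describes these letters only. Zfp36, with the largest ratio, did not hold these letters in its window.

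The pathways named for biliary differentiation and mechanical stress gave few genes past 2-fold. Of 4 measured Notch genes, 0 passed (median 0.53). Jag1, the ligand mutated in Alagille syndrome, measured 159 CPM in pIVCL and 85.2 CPM in Control (ratio 1.87, 1.02 to 3.55). Notch2, its receptor in bile duct formation, measured 53.1 CPM in pIVCL and 85.2 CPM in Control (ratio 0.623, 0.272 to 1.38). Of 15 measured YAP/TAZ genes, 1 was higher past 2-fold (Ptpn14, 92.9 CPM in pIVCL and 35.1 CPM in Control), with a median of 0.32. The YAP targets Cyr61 and Ankrd1 measured 1128 and 827 CPM in pIVCL and 692 and 591 CPM in Control, with log2 ratios of 0.69 and 0.47. With each barcode thinned to 1000 UMIs, the log2 ratios were 0.06 for Cyr61 and -0.05 for Ankrd1, and the median of the YAP/TAZ list was 0.00. Ankrd1 was present in 26 of 42 pIVCL and 14 of 19 Control barcodes, with 0 to 42 UMIs (median 2) in pIVCL and 0 to 39 (median 2) in Control.

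Genes linked to ductular reaction showed no shared direction. Of 13 measured, 0 were at least 2-fold higher in pIVCL and 1 was lower, with a median of -0.15. The lower gene was Prom1, a surface marker of progenitor and duct cells, with 24 UMIs in 19 of 42 pIVCL and 47 in 16 of 19 Control barcodes (106 and 236 CPM). Its log2 ratio of -1.02 was -0.88 without the deepest barcode of each library. Sox4 measured 858 CPM in pIVCL and 972 CPM in Control. Tm4sf4 measured 1818 CPM in pIVCL and 2015 CPM in Control, and Hbegf, a ligand of the EGF receptor, 257 CPM in pIVCL and 150.3 CPM in Control. Of 5 measured cell cycle genes, 0 passed 2-fold (median 0.41, and -0.20 to 0.47 over 10 alternatives). Of 22 listed, Mki67, Ccna2 and Ccnb2 had 0 UMIs in barcodes that met the rule. Top2a was detected in 1.96% of pIVCL and 0% of Control barcodes. The median therefore does not describe cycling. Ccnd1 measured 394 CPM in pIVCL and 601 CPM in Control, and Ccnd2 425 CPM in pIVCL and 266 CPM in Control, so the D-type cyclins had log2 ratios of opposite sign, -0.59 and 0.64.

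Chemokine genes, whose products attract immune cells, were sparsely counted. Of 22, Cxcl16 alone was measured, with 9 UMIs in pIVCL and 14 in Control, and Cxcl9 had 0 UMIs in biliary-rich barcodes of both libraries. The limit of 3 UMIs lies at 13.3 CPM in pIVCL and 15.03 CPM in Control. Of 10 measured interferon response genes, 1 was at least 2-fold higher in pIVCL and 0 lower (median 0.33). That gene, Bst2 (tetherin), measured 208 CPM in pIVCL and 80.2 CPM in Control (ratio 2.59, 1.44 to 4.90), while Irf1, an interferon-induced transcription factor, had a ratio of 0.694 (0.285 to 1.64). Of 7 measured MHC class I genes, 0 passed 2-fold (median -0.04), and H2-K1 measured 1947 CPM in pIVCL and 1999.6 CPM in Control. Of 4 measured NF-kB and inflammatory genes, Nfkbiz, an inducible regulator of NF-kB, was higher past 2-fold, at 155 CPM in pIVCL and 45.1 CPM in Control.

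Of 6 measured TGF-beta and matrix genes, 2 were at least 2-fold higher in pIVCL (median 0.37). Skil, a repressor of SMAD signalling, had 19 UMIs in 15 pIVCL and 4 in 4 Control barcodes. Timp3, an inhibitor of metalloproteinases, measured 212 CPM in pIVCL and 90.2 CPM in Control (ratio 2.35, 1.34 to 4.30). Of 4 measured growth arrest genes, 1 passed (Trp53inp1, 88.5 CPM in pIVCL and 25.1 CPM in Control; median 0.56). Of 11 measured hypoxia and glycolysis genes, 1 passed (Slc2a1; median -0.05), and of 8 redox genes 0 passed (median 0.20). Vegfa, an endothelial growth factor, measured 190.2 CPM in pIVCL and 130.3 CPM in Control, a ratio of 1.46 (0.877 to 2.48).

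**Figure D4:**
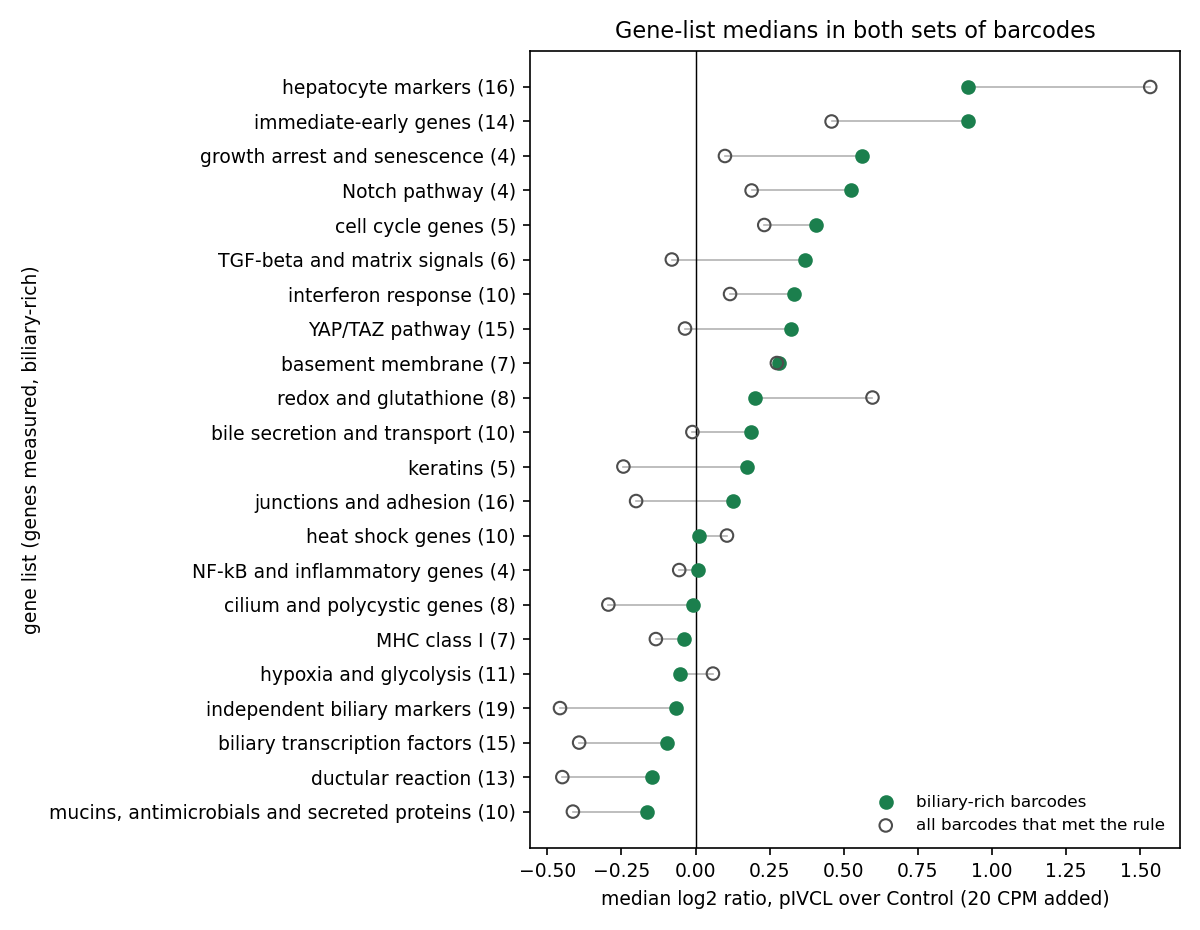
Median log2 ratio (pIVCL over Control, 20 CPM added) of each gene list with at least 4 measured genes, in biliary-rich barcodes (filled) and over all barcodes that met the rule (open); markers of other cells are shown for hepatocytes only. The immediate-early and hepatocyte lists have the highest biliary-rich medians among lists of at least 10 measured genes, 0.92 each.

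Across all genes, the 10 highest log2 ratios in biliary-rich barcodes under the ranking limits belonged to Msmp, Zfp36, Lama4, Tspan31, Hmgcs1, Fabp5, Sar1a, G0s2, Dusp1 and Tuba1a. Msmp, a secreted microseminoprotein, had 190 UMIs in 6 of 42 pIVCL barcodes, 155 of them in 1, and 8 in 3 of 19 Control barcodes. Without the top barcode of each library it measured 159.7 CPM in pIVCL and 10.7 CPM in Control, on 35 and 2 UMIs. Outside cholangiocytes it measured 0.220 CPM in pIVCL and 0.204 CPM in Control. Lama4, a laminin chain, had 42 UMIs in 22 pIVCL and 7 in 4 Control barcodes, a ratio of 5.30 (2.36 to 14.0). Hmgcs1, an enzyme of cholesterol synthesis, measured 159 CPM in pIVCL and 45.1 CPM in Control. Fabp5, a fatty acid carrier, measured 279 CPM in pIVCL and 90.2 CPM in Control (ratio 3.09, 1.81 to 5.54).

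The 10 lowest included Itih5, Pnisr, Mtpn, Zfp950, Ktn1, Taf1d, Blvrb, Vezf1 and Utp3. With barcodes weighted equally, Ktn1 had a log2 ratio of -0.53, against -1.14 over summed UMIs, and Utp3 -0.23, against -1.07. Itih5, a hyaluronan-binding serum inhibitor family member at chr2:10153571-10256529 (plus strand, mm10, GENCODE M21), stood furthest from 1 among them. It had 0 to 3 UMIs per barcode in pIVCL (median 0) and 0 to 18 in Control (median 3). It was detected in 15 of 42 pIVCL and 17 of 19 Control barcodes, at 97.3 CPM (61.0 to 147) and 401 CPM (318 to 499), which gives a ratio of 0.243 (0.144 to 0.393). With each barcode reduced to 1000 UMIs, 12.2% (4.08 to 26.2) of 41 pIVCL and 42.1% (20.3 to 66.5) of 19 Control barcodes held it. Hepatocyte barcodes at that depth held it in 2.28% in pIVCL and 0% in Control. In all other kept barcodes Itih5 measured 17.6 CPM in pIVCL and 8.81 CPM in Control, so the order there was the opposite one. The make-up of that pool differed between the libraries.

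Mfge8, a secreted bridge protein for the uptake of dying cells, lay at chr7:79133768-79149060 (minus strand). It had 0 to 13 UMIs per barcode in pIVCL (median 1.5) and 0 to 46 in Control (median 7). It measured 438 CPM (356 to 533) in pIVCL and 937 CPM (808 to 1082) in Control, a ratio of 0.467 (0.363 to 0.599). The log2 ratio of -1.06 was -0.95 without the deepest barcode of each library and -0.51 after thinning. Thinned, it was present in 39.0% of pIVCL and 68.4% of Control barcodes. In all other kept barcodes, a pool of different make-up in each library, it measured 23.97 CPM in pIVCL and 83.4 CPM in Control. The order is the same. Mfge8 and Fmo2 were chosen from the ranking over all barcodes. Fmo2, a flavin monooxygenase, had a log2 ratio of -1.43 over all barcodes and -0.96 in biliary-rich ones.

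**Figure D5:**
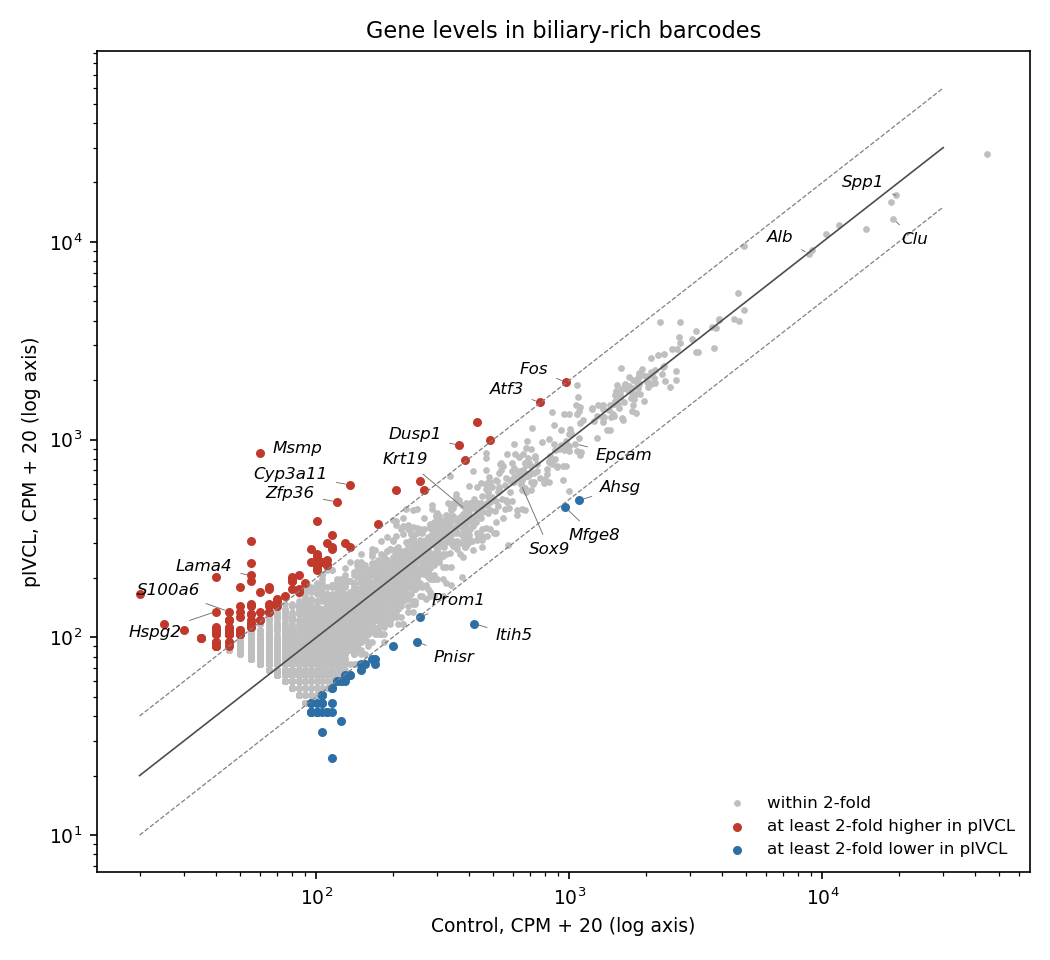
Level of each of 3672 measured genes in biliary-rich barcodes, with Control on the horizontal and pIVCL on the vertical log axis, in CPM with 20 added. Outside the dashed 2-fold lines lie 115 genes higher in pIVCL, Msmp and Zfp36 among them, and 42 lower, Itih5 and Mfge8 among them.

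Single hepatocyte markers differed in the biliary-rich barcodes, while their summed shares were those given above. Of 16 hepatocyte markers, 7 were at least 2-fold higher in pIVCL and 1 was lower, with a median of 0.92, which was 0.27 after thinning. Alb measured 8667 CPM in pIVCL and 8815 CPM in Control (ratio 0.983, 0.921 to 1.05). Cyp3a11, a drug-metabolising cytochrome, measured 571 CPM in pIVCL and 115 CPM in Control. Leukocyte barcodes, which had no limit on hepatocyte genes, held Cyp3a11 at 1076 CPM in pIVCL and 330 CPM in Control. Over those barcodes the marker list had a median of 1.05. Of the 115 higher genes, 28 had at least 5 times the level in pIVCL hepatocyte barcodes. The share of all measured genes that did so was not computed. Ahsg, a hepatocyte plasma protein and the 1 lower marker, had 107 UMIs in pIVCL and 214 in Control, 111 of the 214 in 1 barcode. Without the top barcodes it measured 378 CPM in pIVCL and 568 CPM in Control. How much of these genes' RNA came from free RNA in the suspension was not tested.

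Within each library, some genes varied among biliary-rich barcodes by more than counting noise. The spread of each gene over barcodes was compared with that expected from counting alone, where 1 means counting noise only, for 1357 genes with at least 20 UMIs in each library. The median gene had an index of 1.06 in pIVCL and 1.04 in Control. At the same relative spread the index rises with a gene's UMIs. A median near 1 therefore does not show that most genes were even. Spp1 had an index of 14.8 in pIVCL and 14.1 in Control, Atf3 13.6 and 18.0, Ankrd1 11.4 and 10.99, and Fos 8.08 and 11.2. Atf3 ranged from 0 to 35 UMIs in pIVCL (median 3) and from 0 to 30 in Control (median 2). Ranked by the lesser of their indices in the 2 libraries, Apoe, Malat1 and Alb came first.

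Barcodes with a larger share of immediate-early UMIs also tended to hold more UMIs of the YAP/TAZ genes. Pearson's r was 0.52 over 42 pIVCL and 0.31 over 19 Control barcodes, and Spearman's rho was 0.51 in each library. These barcodes share a library, so the coefficients are a description. The coefficients with the biliary share were -0.10 in pIVCL and -0.12 in Control, and those with log10 UMIs were -0.12 and -0.17 (Pearson). With the mitochondrial share, Pearson's r was -0.12 in pIVCL and -0.41 in Control, and Spearman's rho -0.11 and -0.53. With the share of hepatocyte markers, Pearson's r was -0.16 in pIVCL and -0.30 in Control, and Spearman's rho -0.15 and -0.39. Their part in the immediate-early difference was not tested.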

How the data were processed

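The authors deposited 1 filtered matrix of raw UMI counts per library, made with Cell Ranger 3.0.2 on mm10, per the submitters' processing notes; the labels' protocols name 10x Genomics 3' version 2 chemistry. Counts were read as deposited, with no value recovered or imputed. The least deep barcode in either file held 500 UMIs. Barcodes with under 200 genes or over 25% mitochondrial UMIs were removed (22.7% in pIVCL, 23.7% in Control). No columns were left unused.

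UMIs were summed over the chosen barcodes of a library and scaled to 1000000 summed UMIs (CPM). Intervals (95%) are exact Poisson for levels, Clopper-Pearson for shares and exact binomial, conditional on the summed UMIs, for ratios. They cover counting error only. A gene with at least 20 summed UMIs over both libraries was called measured, and past 2-fold at a log2 ratio of at least 1 or at most -1 with 20 CPM added. These are rules of size, not tests. Thinning drew 1000 UMIs per barcode and left shallower barcodes out. Each thinned value rests on 1 random draw. Separate draws gave the shares over all barcodes, the shares in biliary-rich barcodes and the log2 ratios. How far values differ between draws was not computed, so a thinned value also holds the error of its draw. Levels of different genes are not compared, since 3' counts are not per length.

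Barcode classes were set by markers: mesothelial (at least 2 UMIs of Upk3b and Msln), sinusoidal endothelial (at least 2 of Stab2), leukocyte (Ptprc), stellate (at least 3 of Dcn, Lrat, Reln and Colec11), erythroid (globins at least 20% of UMIs) and hepatocyte (9 genes at least 10% of UMIs). Genes named were those of the rule, those in each list with the largest ratio or level, the 10 highest and 10 lowest log2 ratios with at least 30 summed UMIs and 50 CPM, leaving out genes at least 5 times higher in another class of the same library, and the 15 leading over all other barcodes. Other genes were named after their values were seen. The members and gene lists were chosen with earlier results of these data known. The biliary-rich limit, the spread index and the values without a top barcode were chosen after seeing the data. The summing and interval code was tested on simulated data. Python 3.11.15, numpy 2.4.6, scipy 1.17.1, pandas 2.3.3 and matplotlib 3.10.9 were used. Promoter windows came from RefSeq (GRCm38.p6) and gene coordinates from GENCODE M21. A few named items are not reported here.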

Additional observations from a re-analysis of the deposited data

How the results depend on the processing

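No paired analysis was possible because each group has 1 library, which also leaves no replicate to leave out. The share ratio of 1.16 was 0.607 relative to hepatocyte and 5.80 relative to mesothelial barcodes. Counts of genes past 2-fold depended on size limits. Over all barcodes, 246 genes were higher in pIVCL, against 113 with at most 10% mitochondrial UMIs, 50 after thinning, 135 with 50 CPM added, 138 with at least 50 summed UMIs and 115 in biliary-rich barcodes; the highest alternative was 351, without barcodes that held a UMI of any of 6 markers of other cells. The 90 lower genes became 52, 14, 14, 22 and 42 under these alternatives, 142 with barcodes weighted equally, 240 with 5 CPM added and 165 with at least 10 summed UMIs. In biliary-rich barcodes, the 115 higher genes became 34 after thinning, 192 with 5 CPM added, 46 with 50 CPM added, 211 with at least 10 and 40 with at least 50 summed UMIs. The 42 lower genes became 9, 98, 8, 110 and 6, and 68 with equal weights. The MHC class II median over all barcodes changed sign: it was -0.46 in barcodes without a UMI of Stab2, Clec4g, Pecam1, Dcn, Clec4f or C1qa, against 1.60, where 1 gene was left measured in place of 4. The immediate-early median in biliary-rich barcodes stayed between 0.71 and 1.21 over 10 alternatives, and the Itih5 log2 ratio between -2.04 and -1.61 over 9. Of 22 list medians in biliary-rich barcodes, 12, all between -0.15 and 0.41, had the other sign under at least 1 alternative. Of the 533 alternative log2 ratios of named genes in biliary-rich barcodes, 516 moved by less than their counting interval and 0 of those called reversed. Depth limits genes under about 20 UMIs, among them most transport genes, chemokines and MHC class II genes.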
